A study of Mus musculus with 6 samples.

Results

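The corticosteroid receptors and the genes that answer to them were examined in the frontal cortex of mice that overproduce the inflammatory cytokine IL6 in the brain. The set held 10 genes, namely the receptors *Nr3c1* and *Nr3c2*, the hormone-activating enzyme *Hsd11b1*, and the responsive genes *Sgk1*, *Tsc22d3*, *Zbtb16*, *Dusp1*, *Pdk4*, *Errfi1* and *Cdkn1a*. Its members were the rows of the deposited count table whose symbol was one of these names, 10 of 33000 genes, and all 10 passed the low-count filter that left 15341 genes for testing. TruSeq mRNA libraries, which sample transcripts along their full length, had been prepared from 3 wild-type (WT) C57BL/6 mice and from 3 mice homozygous for the GFAP-IL6 transgene, recorded under the same strain. All mice were 3 months old, were killed by cervical dislocation, and the labels name no treatment. The transgene places *Il6* under the promoter of *Gfap* and is thereby expressed in astrocytes, and hormone levels were not analysed here. Each library came from a separate mouse.

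Corticosterone, the main glucocorticoid of the mouse, enters cells freely and binds a pair of nuclear receptors. The mineralocorticoid receptor binds it with high affinity, whereas the glucocorticoid receptor binds it with lower affinity and is filled mainly at the daily peak and under stress. The bound receptor leaves a complex of HSP90 chaperones, moves to the nucleus and activates genes through palindromic DNA elements, or represses inflammatory genes through contact with other transcription factors. Several of its target genes, *Dusp1* among them, also answer to growth factors, cytokines, cyclic AMP or neuronal activity, so their transcripts do not report the hormone alone.

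Libraries held between 7559524 and 16877001 counts, and every GFAP-IL6 library was shallower than every WT library. As a check of the labels, *Il6* had 0, 2 and 0 counts in the WT libraries against 12, 10 and 24 in those of GFAP-IL6, and *Gfap* had 878, 2059 and 1341 against 5773, 4889 and 7795 counts, with transgenic and endogenous transcripts counted together. Summed levels of 10 neuronal and of 10 astrocyte markers overlapped between the groups, whereas those of microglial, endothelial and mural (pericyte and smooth muscle) markers were higher in each GFAP-IL6 library. Expression is given as CPM, the usual unit of counts relative to library size, after TMM scaling, and the summed CPM ranged from 398 to 499 in WT and from 670 to 771 in GFAP-IL6 for the microglial list, from 271 to 286 and from 408 to 464 for the endothelial list, and from 216 to 259 and from 290 to 331 for the mural list. Single markers did not all follow these sums, since *P2ry12* and *Gpr34* of the microglial list had lower means in GFAP-IL6. Their means were 46.3 and 17.8 CPM in WT and 38.4 and 15.5 CPM in GFAP-IL6. Marker sums also set single libraries apart, with 642 CPM of choroid plexus markers in WT replicate 3 against 5.23 to 65.2 in the other libraries, 503 CPM of striatal markers in WT replicate 2 against 260 to 333, and 3430 and 3465 CPM of oligodendrocyte markers in WT replicate 1 and GFAP-IL6 replicate 2 against 4496 to 6366. Markers of blood leukocytes were close to absent, with at most 14 counts for any of 10 genes and 0 counts of *Cd3d* in every library. In bulk tissue, fewer cells of a type and less RNA per cell cannot be told apart, and this holds for each difference below.

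**Figure D1:**
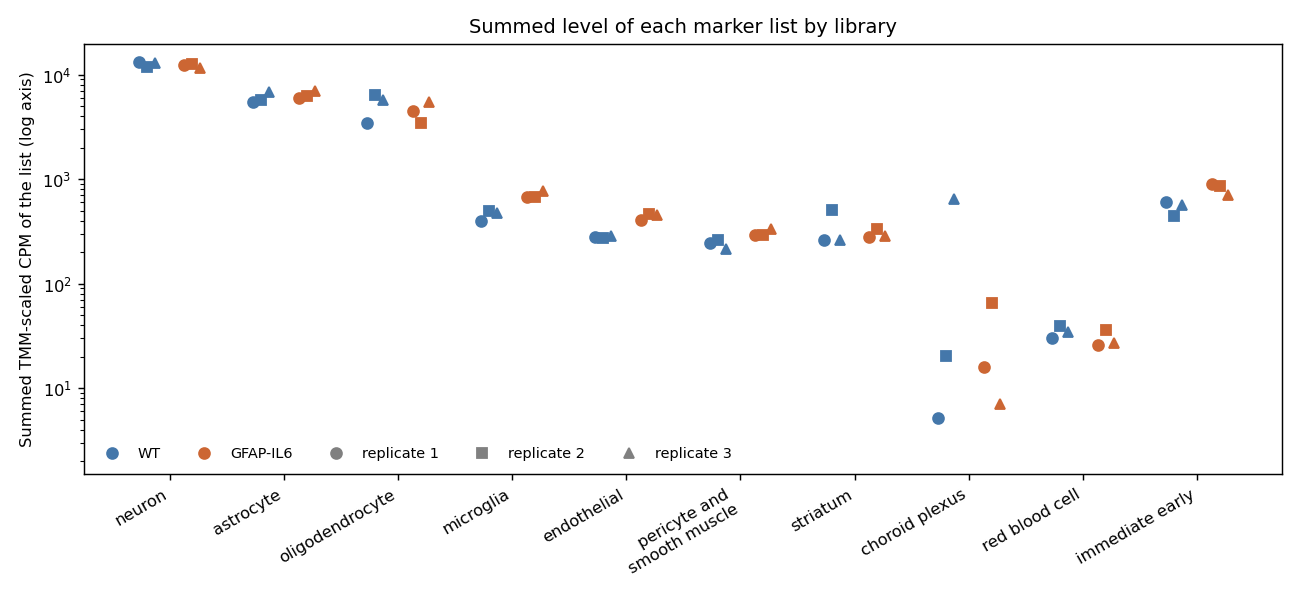
Summed TMM-scaled CPM of each marker list (10 genes in each list, 5 for red blood cells) in each of the 6 libraries on a log axis, with WT in blue, GFAP-IL6 in orange and the replicate given by the shape. The microglial, endothelial, mural and immediate early sums lay apart between the groups, and WT replicate 3 stood apart in the choroid plexus list at 642 CPM.

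Of the 10 genes, *Dusp1* alone was past an adjusted p of 0.05 by edgeR (quasi-likelihood test, Benjamini-Hochberg adjustment over all genes tested), and it was higher in GFAP-IL6. Across all genes tested, 2.86% passed this threshold, 2.65% passed it as higher in GFAP-IL6, and 1.38% were differentially expressed genes (DEGs) that also had an absolute log2 fold change over 1, as *Dusp1* had. An unadjusted p under 0.05 was found for 3 of the 10 genes, *Dusp1*, *Zbtb16* and *Nr3c1*, against 20.5% of all genes. The GFAP-IL6 libraries lay wholly above the WT libraries for *Dusp1* and *Zbtb16*, 2 of 10 genes against 13.8% of all genes, and wholly below them for *Nr3c1* and *Nr3c2*, 2 of 10 against 12.7%. With so few genes, these counts do not set the group apart from the genes at large. The median log2 fold change, taken here and below as GFAP-IL6 minus WT, was -0.14 over the 10 genes, of which 3 were above 0 and 7 below. Over all genes tested the median was -0.0038, the standard deviation (SD) was 0.38 and 49.4% were above 0.

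**Figure D2:**
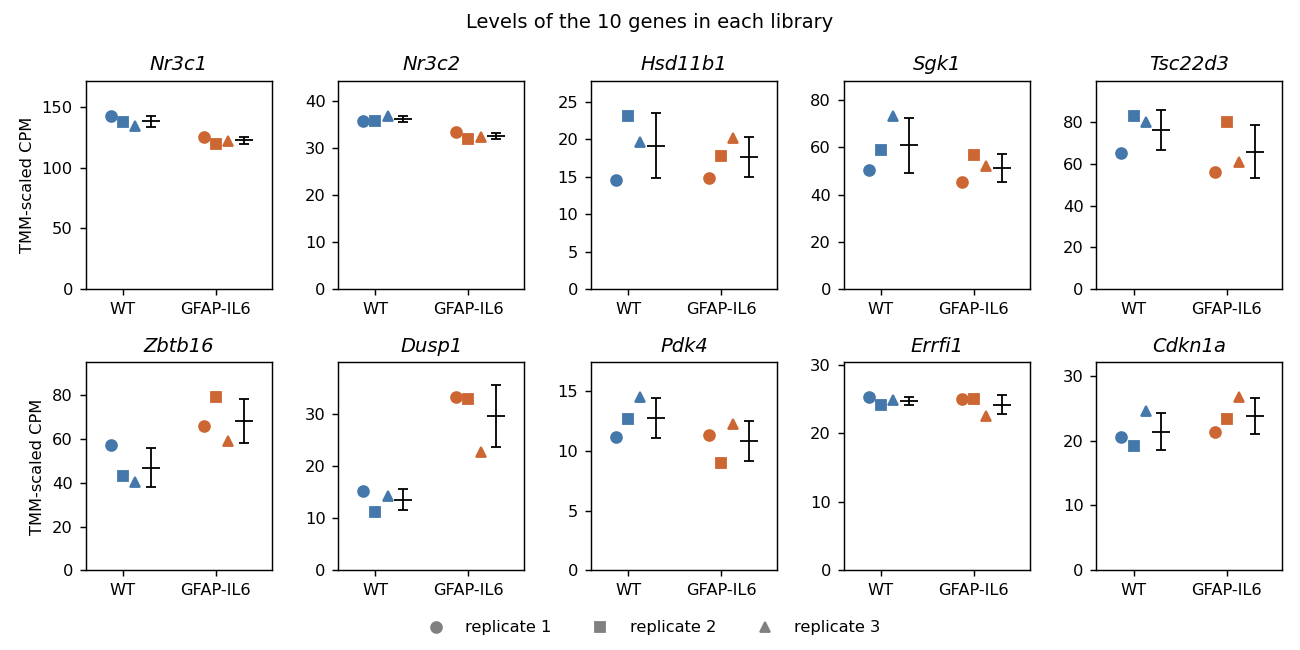
TMM-scaled CPM of the 10 genes in each library, with 1 panel for each gene, axes from 0, the replicate given by the shape, and the mean with its SD in black (n = 3 in each group). *Dusp1* lay at 11.3 to 15.2 CPM in WT and at 22.8 to 33.3 CPM in GFAP-IL6, while *Errfi1* stayed within 22.6 to 25.3 CPM over all 6 libraries.

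To compare levels between genes, counts were divided by gene length and expressed as TPM, a unit relative to the sum of length-scaled counts in the library. The highest mean over the 6 libraries was that of *Tsc22d3* at 72.6 TPM (59.8 to 83.7), followed by *Nr3c1* at 56.7 TPM (53.1 to 62.4), and the ranges of these 2 genes overlapped. *Sgk1* followed at 39.3 TPM, *Zbtb16* at 32.3, *Dusp1* at 31.2, *Cdkn1a* at 28.9, *Hsd11b1* at 27.6 and *Errfi1* at 21.5 TPM, and neighbours among these 6 genes overlapped. *Nr3c2* at 15.8 TPM (15.0 to 16.6) and *Pdk4* at 9.63 TPM (7.46 to 11.6) closed the order, each apart from the gene above it.

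The receptors themselves were examined first. *Nr3c1* (ENSMUSG00000024431.12, GRCm38 chr18:39410545-39519421, minus strand) encodes the glucocorticoid receptor, and its level was 143, 138 and 134 CPM in WT and 126, 119.9 and 122 CPM in GFAP-IL6. All GFAP-IL6 libraries thus lay below all WT libraries, with a narrow spread in each group. The means were 138 ± 4.39 and 123 ± 2.89 CPM (SD, n = 3 each), and the log2 fold change was -0.17 ± 0.076 (standard error, SE; 95% interval -0.34 to -0.0072), which was not past the threshold with an edgeR adjusted p of 0.227. *Nr3c2* (ENSMUSG00000031618.11, chr8:76899442-77245012, plus strand) encodes the mineralocorticoid receptor, and it had 35.7, 35.8 and 36.9 CPM in WT and 33.3, 32.0 and 32.3 CPM in GFAP-IL6. Here too each GFAP-IL6 library lay below each WT library. The log2 fold change of *Nr3c2* was -0.15 ± 0.083 (SE; 95% interval -0.33 to 0.030), with an edgeR adjusted p of 0.324. Replicates of both receptors were close, with a coefficient of variation in WT of 3.17% for *Nr3c1* and 1.77% for *Nr3c2* against a median of 10.5% over all genes tested.

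The balance of the receptors differed little between libraries. The ratio of *Nr3c1* to *Nr3c2* in TPM was between 3.44 and 3.78 in all 6 libraries. On the log2 scale the ratio was 1.92, 1.86 and 1.78 in WT and 1.83, 1.83 and 1.84 in GFAP-IL6, so that the GFAP-IL6 values lay within the WT range. The difference of the means was -0.021, and an exact permutation test (two-sided) gave a p of 0.7, where 3 against 3 libraries cannot go below 0.1.

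*Hsd11b1* (ENSMUSG00000016194.12, chr1:193221634-193264075, minus strand) encodes the enzyme that regenerates active corticosterone from its inert 11-keto form inside cells. Its level was 14.5, 23.1 and 19.7 CPM in WT and 14.9, 17.7 and 20.2 CPM in GFAP-IL6. The groups overlapped, with replicate 1 the lowest library of each. The log2 fold change was -0.14 ± 0.17 (SE; 95% interval -0.50 to 0.22), with an edgeR adjusted p of 0.666. *Hsd11b2*, the enzyme of the opposite reaction, never exceeded 5 counts and was not tested.

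To show the DNA in front of the responsive genes, the 250 bases before RefSeq transcription starts were read from GRCm38.p6. Such windows were found for 8 of the 10 genes, 17 in all, and none was found for *Nr3c1* and *Zbtb16*. The palindromic core of the glucocorticoid response element, ACANNNTGT, occurred in windows of *Sgk1* only, 2 of its 6, against 5.84% of the 32851 windows of all genes. Elements outside the 250 bases were not searched. The cyclic AMP response element TGACGTCA occurred in 1 window each of *Dusp1* and *Errfi1*, against 1.55% of all windows, and the STAT core TTCNNNGAA, the element through which IL6 signalling acts, in 1 window each of *Sgk1* and *Tsc22d3*, against 7.02%. The hexamer AGAACA, which overlaps the core where a full element is present, occurred in 4 windows of *Sgk1* and *Tsc22d3*, against 16.1%. Both strands were searched, and a match of letters describes the sequence and does not show that a factor was bound. The windows below are those of *Dusp1*, whose transcript rose, of *Errfi1*, which holds the same element and did not pass the test, and of the *Sgk1* start with the full palindrome. Each is written 5′ to 3′ on the strand of its gene, with the cyclic AMP response element in capitals for *Dusp1* and *Errfi1*, and with the core and the hexamers that overlap it in capitals for *Sgk1*.
Dusp1, chr17:26508473-26508722, minus strand: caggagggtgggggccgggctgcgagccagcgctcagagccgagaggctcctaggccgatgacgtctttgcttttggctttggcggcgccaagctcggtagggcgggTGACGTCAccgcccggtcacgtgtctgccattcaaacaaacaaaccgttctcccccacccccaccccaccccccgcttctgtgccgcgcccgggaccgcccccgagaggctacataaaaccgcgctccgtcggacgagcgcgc
Errfi1, chr4:150854820-150855069, plus strand: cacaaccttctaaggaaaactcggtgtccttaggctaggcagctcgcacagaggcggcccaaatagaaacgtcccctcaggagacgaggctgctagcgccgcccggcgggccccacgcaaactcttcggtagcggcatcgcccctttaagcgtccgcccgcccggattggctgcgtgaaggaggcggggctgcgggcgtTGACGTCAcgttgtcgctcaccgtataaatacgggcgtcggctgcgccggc
Sgk1, chr10:21993640-21993889, plus strand: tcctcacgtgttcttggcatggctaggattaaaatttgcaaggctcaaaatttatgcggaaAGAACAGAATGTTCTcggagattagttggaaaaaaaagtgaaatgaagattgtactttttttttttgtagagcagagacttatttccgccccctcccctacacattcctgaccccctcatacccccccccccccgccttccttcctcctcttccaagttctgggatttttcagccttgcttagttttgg
The first base of the capitals' element lies 143 bases before the start for *Dusp1* and 51 for *Errfi1*. The core of *Sgk1* begins 186 bases before the start shown, 1 of 6 starts of that gene with a window.

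Of the responsive genes, those with anti-inflammatory roles were considered first. *Dusp1* (ENSMUSG00000024190.6, chr17:26505590-26562128, minus strand) encodes a phosphatase that inactivates the MAP kinases p38 and JNK, and it is an early target of the glucocorticoid receptor as well as an immediate early gene. The WT libraries held 174, 189 and 229 counts of *Dusp1* and the GFAP-IL6 libraries 371, 249 and 204, or 15.2, 11.3 and 14.4 CPM against 33.3, 32.9 and 22.8 CPM. The groups did not overlap, and GFAP-IL6 replicate 3 was the lowest of its group. *Dusp1* was 2.19-fold higher in GFAP-IL6, from 13.6 ± 2.05 to 29.6 ± 5.95 CPM (SD, n = 3 each), with a log2 fold change of 1.13 ± 0.16 (SE; 95% interval 0.79 to 1.47) and an edgeR adjusted p of 0.00115. By its p-value, *Dusp1* ranked 115 among all genes tested, and 98.6% of genes had a lower log2 fold change. It was past the threshold in all 16 alternative fits, with log2 fold changes of 1.01 without WT replicate 2 to 1.29 without GFAP-IL6 replicate 3. In GENCODE M21, only 11 of its exon bases (0.332%) are shared with *Ergic1* on the opposite strand. That model of *Dusp1* has 3311 exon bases, against a deposited length of 1990.

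*Tsc22d3* (ENSMUSG00000031431.11, chrX:140539528-140600659, minus strand) encodes GILZ, a leucine zipper protein that binds and restrains NF-κB and AP-1. Its level was 65.1, 83.1 and 80.2 CPM in WT and 56.2, 80.2 and 61.0 CPM in GFAP-IL6. The groups overlapped, since GFAP-IL6 replicate 2 was as high as the WT libraries. The log2 fold change of *Tsc22d3* was -0.22 ± 0.13 (SE; 95% interval -0.50 to 0.062), with an edgeR adjusted p of 0.355, and the interval holds no rise above 0.062.

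*Zbtb16* (ENSMUSG00000066687.4, chr9:48654297-48836222, minus strand) encodes PLZF, a zinc finger repressor that is a strong target of the receptor in many tissues. It had 57.3, 43.2 and 40.6 CPM in WT and 65.9, 79.2 and 59.4 CPM in GFAP-IL6. All GFAP-IL6 libraries lay above all WT libraries, although WT replicate 1 and GFAP-IL6 replicate 3 came within a few CPM of each other. The means were 47.0 ± 8.99 and 68.2 ± 10.1 CPM (SD, n = 3 each), a log2 fold change of 0.54 ± 0.13 (SE; 95% interval 0.25 to 0.83) with an edgeR adjusted p of 0.0531, just outside the threshold. The adjusted p of *Zbtb16* was under 0.05 in 5 of 16 alternatives, at 0.0402 with total count scaling, 3.4e-04 without the low-count filter, 0.0118 by DESeq2, 0.0214 with a replicate block and 0.00478 without WT replicate 1, where the log2 fold change was 0.70. In the other 11 it was between 0.0519 and 0.191, with the highest value without GFAP-IL6 replicate 2. The call of *Zbtb16* thus depended on the method and on WT replicate 1, while its log2 fold change was above 0 throughout, from 0.42 to 0.70.

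The kinase and metabolic targets did not pass the test. *Sgk1* (ENSMUSG00000019970.13, chr10:21882184-21999903, plus strand) encodes a serum- and glucocorticoid-induced kinase that regulates ion channels and transporters, and its level was 50.3, 59.1 and 73.5 CPM in WT and 45.2, 56.7 and 52.1 CPM in GFAP-IL6. The groups overlapped, and the highest value was that of WT replicate 3, the library with the highest sum of choroid plexus markers. The log2 fold change of *Sgk1* was -0.26 ± 0.13 (SE; 95% interval -0.54 to 0.024) with an edgeR adjusted p of 0.281. It was -0.10 without WT replicate 3 and -0.37 without WT replicate 1, with edgeR adjusted p values of 0.680 and 0.0698. The part of choroid plexus RNA in these values was not tested. *Pdk4* (ENSMUSG00000019577.4, chr6:5483351-5496309, minus strand) encodes a kinase that shuts down pyruvate dehydrogenase when fat is used as fuel. It had 11.1, 12.7 and 14.5 CPM in WT and 11.3, 8.98 and 12.3 CPM in GFAP-IL6. The ranges of *Pdk4* overlapped, with the lowest value in GFAP-IL6 replicate 2, and the log2 fold change was -0.23 ± 0.15 (SE; 95% interval -0.56 to 0.093; edgeR adjusted p of 0.394).

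*Errfi1* and *Cdkn1a* restrain growth, the former as an inhibitor of the EGF receptor and the latter as p21, an inhibitor of cyclin-dependent kinases. *Errfi1* (ENSMUSG00000028967.8, chr4:150853919-150868892, plus strand) had 25.3, 24.1 and 24.9 CPM in WT and 25.0, 25.0 and 22.6 CPM in GFAP-IL6. These values were nearly level across the libraries, and the log2 fold change was -0.03 ± 0.095 (SE) with a 95% interval from -0.24 to 0.17 and an edgeR adjusted p of 0.877. *Cdkn1a* (ENSMUSG00000023067.11, chr17:29090976-29100727, plus strand) had 20.6, 19.1 and 24.5 CPM in WT and 21.2, 23.4 and 26.7 CPM in GFAP-IL6. The groups overlapped, and the log2 fold change of *Cdkn1a* was 0.15 ± 0.12 (SE; 95% interval -0.12 to 0.42; edgeR adjusted p of 0.518).

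**Figure D3:**
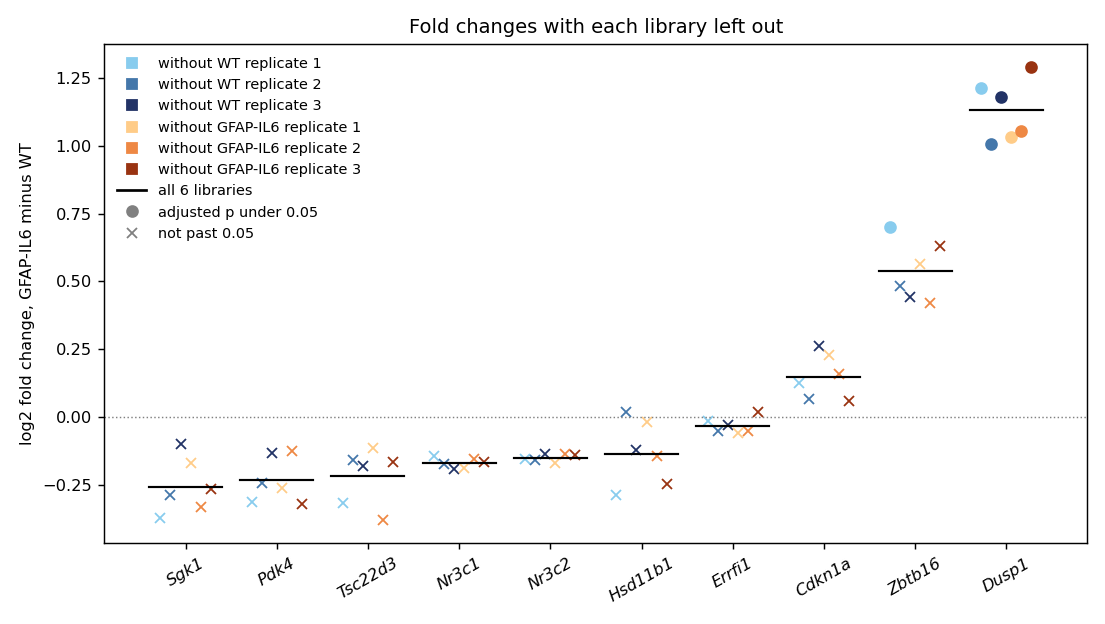
Log2 fold change (GFAP-IL6 minus WT) of the 10 genes from edgeR fits that each left out 1 library, with the fit to all 6 libraries as a black line, circles for an adjusted p under 0.05 and crosses for values not past it. *Dusp1* stayed between 1.01 and 1.29 with an adjusted p under 0.05 in all 6 fits, *Zbtb16* was past the threshold only without WT replicate 1, and *Hsd11b1* and *Errfi1* each crossed 0 once.

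**Figure D4:**
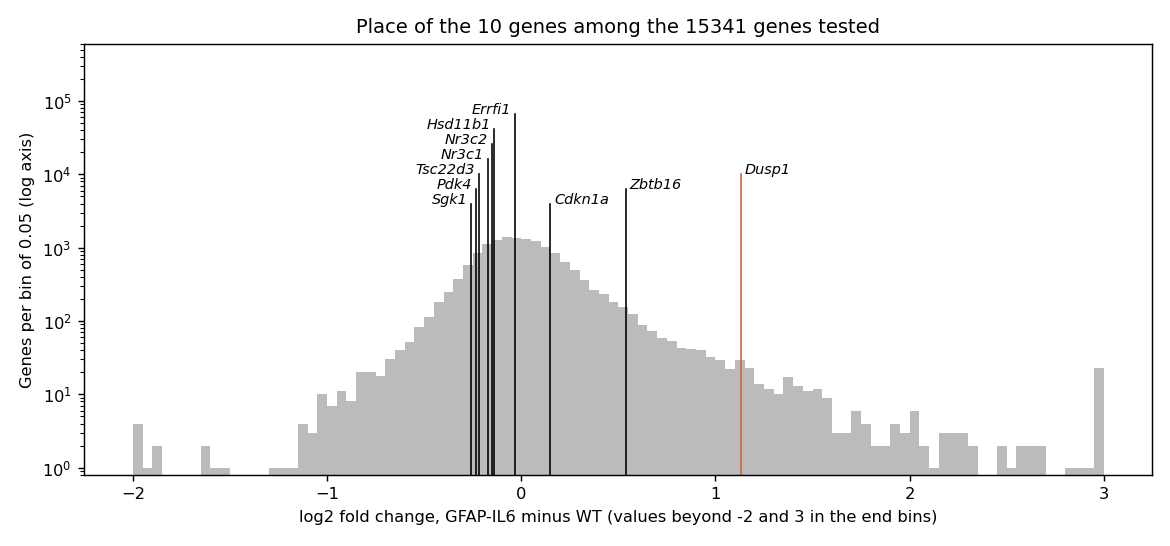
Histogram of the edgeR log2 fold changes (GFAP-IL6 minus WT) of all 15341 genes tested on a log count axis, with a line at the value of each of the 10 genes, whose heights only separate the names. *Dusp1*, in orange, lay above 98.6% of genes and *Zbtb16* above 94.3%, whereas the other 8 genes lay between -0.26 and 0.15.

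Further genes known to answer to glucocorticoids were examined as a list of 22, of which 21 were tested, since *Tat*, a liver enzyme, had at most 1 count in any library. Of these, 3 rose, 0 fell and 18 were not past the threshold, which 2.86% of all genes tested passed. An unadjusted p under 0.05 was found for 5 of the 21, against 20.5% of all genes. Log2 fold changes were above 0 in 12 and below in 9, with a median of 0.14. *Plin4*, a coat protein of lipid droplets, had 2.61, 3.16 and 2.70 CPM in WT and 6.72, 20.7 and 8.82 CPM in GFAP-IL6. Its groups lay far apart, and GFAP-IL6 replicate 2 was more than double its fellows. The log2 fold change of *Plin4* was 2.05 ± 0.36 (SE; edgeR adjusted p of 0.00668), and it was 1.44 without that library, with an adjusted p of 0.00630. *Cebpd*, a transcription factor of the acute phase that is also induced by IL6 through STAT3, had 1.13, 1.19 and 2.39 CPM in WT and 3.59, 4.75 and 5.25 CPM in GFAP-IL6, which gave a log2 fold change of 1.49 ± 0.31 (SE; edgeR adjusted p of 0.0184). *Map3k6*, a stress-activated kinase, had 3.92, 4.41 and 2.83 CPM in WT and 6.27, 9.77 and 6.59 CPM in GFAP-IL6, which gave a log2 fold change of 1.002 ± 0.23 (SE; edgeR adjusted p of 0.0355). For these 3 genes, all of which had low counts, the groups did not overlap. Over all genes tested, 13.8% lay apart in this direction. In GENCODE M21, *Cebpd* shares 15.0% of its exon bases with *Spidr* on the opposite strand. That model of *Cebpd* has 3746 exon bases against a deposited length of 1180, so the share in the counted gene may differ. The use of strand in counting was not stated.

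The calls of *Cebpd* and *Map3k6* were lost in some fits with fewer libraries or counts, while both genes had log2 fold changes above 0 in every fit. *Cebpd* had a log2 fold change of 1.45 without GFAP-IL6 replicate 2 (edgeR adjusted p of 0.0749), 1.37 without GFAP-IL6 replicate 3 (0.149) and 1.23 when all libraries were thinned to the smallest total (0.0732). *Map3k6* had a log2 fold change of 1.13, 0.79 and 1.09 without GFAP-IL6 replicates 1, 2 and 3 (edgeR adjusted p of 0.0538, 0.157 and 0.105), 0.83 without WT replicate 3 (0.0999) and 0.82 after thinning (0.104). *Fkbp5* and *Per1*, chosen here after their values were seen, are widely used readouts of receptor activity, the former as a feedback inhibitor of the receptor and the latter as a clock gene. *Fkbp5* had 27.2, 30.4 and 23.8 CPM in WT and 29.8, 49.0 and 27.5 CPM in GFAP-IL6. Only GFAP-IL6 replicate 2 lay above the WT range, and the log2 fold change of *Fkbp5* was 0.37 with an edgeR adjusted p of 0.268, or 0.08 without that library. *Per1* had 96.9, 55.5 and 77.8 CPM in WT and 124, 113 and 85.1 CPM in GFAP-IL6, with overlapping groups, a log2 fold change of 0.49 and an edgeR adjusted p of 0.155, which was 0.0284 without WT replicate 1.

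**Figure D5:**
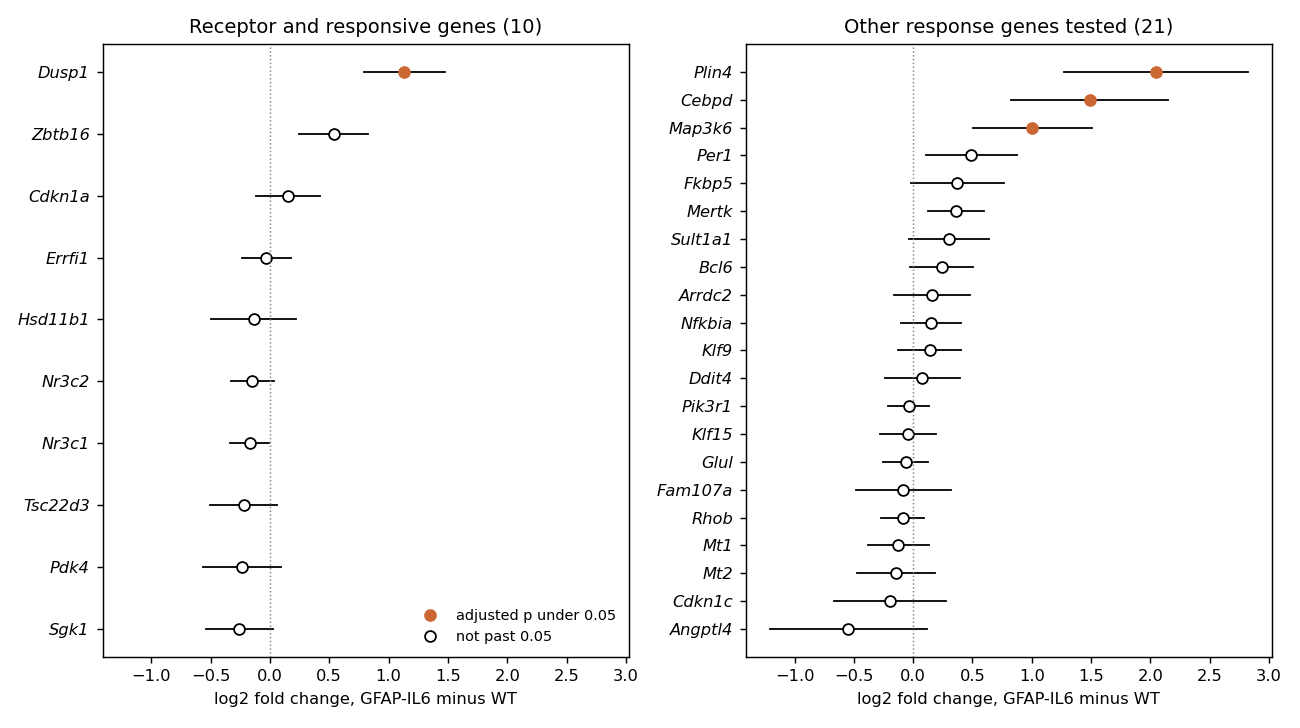
Log2 fold change (GFAP-IL6 minus WT) with its 95% interval by edgeR for the 10 genes on the left and for the 21 further response genes tested on the right, with filled circles for an adjusted p under 0.05. *Dusp1* on the left, and *Plin4*, *Cebpd* and *Map3k6* on the right, were past the threshold, all of them higher in GFAP-IL6.

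The proteins that handle the receptor before and after hormone binding were then examined. The HSP90 chaperones and cochaperones, which hold the receptor ready for hormone, had 0 of 10 genes past the adjusted threshold by edgeR, by DESeq2 or by limma-voom. An unadjusted p under 0.05 was found for 0 of them, against 20.5% of all genes. Their log2 fold changes were below 0 in 9 of 10 genes with a median of -0.077, and the largest in size were those of *Ptges3*, the cochaperone p23, at -0.24 (edgeR adjusted p of 0.278) and *Bag1*, a nucleotide exchange factor of HSP70, at -0.22 (edgeR adjusted p of 0.294). Coactivators and corepressors had 0 of 10 genes past the adjusted threshold by edgeR or DESeq2. Of the 10, 3 had an unadjusted p under 0.05, against 20.5% of all genes. Their log2 fold changes were above 0 in 9 of 10, with a median of 0.13. The coactivator *Ncoa3* had a log2 fold change of 0.24 with an edgeR adjusted p of 0.172.

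Genes of corticosteroid supply, conversion and efflux gave 1 call. Of 13 such genes, 9 were tested, 1 rose, 0 fell and 8 did not pass the threshold, which 2.86% of all genes tested passed. Of the 9, 4 had an unadjusted p under 0.05, against 20.5% of all genes. The GFAP-IL6 libraries lay wholly above the WT libraries for 4 of the 9, against 13.8% of all genes. Their median log2 fold change was 0.16. *Abcb1a* encodes P-glycoprotein, the efflux pump of brain endothelium that exports several steroids. It had 31.9, 29.2 and 32.3 CPM in WT and 43.3, 44.1 and 43.3 CPM in GFAP-IL6, with clear separation and close replicates. The log2 fold change of *Abcb1a* was 0.49 ± 0.085 (SE; edgeR adjusted p of 0.00666), and it was past the threshold in each of the 16 alternative fits. Of 10 endothelial markers, 7 were also past the threshold and higher, with a median log2 fold change of 0.64, and the part of endothelial RNA in the value of *Abcb1a* was not tested. A stretch of 10.1% of the exon bases of *Abcb1a* is shared with an annotated transcript on the opposite strand, and reads of the closely related *Abcb1b* may be divided uncertainly between the pair.

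Relatives and partners of the 10 genes were examined for changes of the same kind. Among 16 paralogs, 0 were past the adjusted threshold by edgeR or DESeq2 and 4 had an unadjusted p under 0.05, against 20.5% of all genes. Their median log2 fold change was 0.065. The largest log2 fold changes in size were those of *Dusp5* and *Dusp2*, nuclear phosphatases of MAP kinases. *Dusp5* had 8.45, 8.41 and 9.35 CPM in WT and 13.4, 10.96 and 14.4 CPM in GFAP-IL6, or a log2 fold change of 0.57 with an edgeR adjusted p of 0.0526. *Dusp2* was barely detected, with 0.697, 1.31 and 0.879 CPM in WT and 1.52, 1.19 and 1.12 CPM in GFAP-IL6, and its groups overlapped at a log2 fold change of 0.39 (edgeR adjusted p of 0.547). *Dusp6*, a cytoplasmic phosphatase of ERK named here after its values were seen, had 64.9, 60.3 and 67.1 CPM in WT and 81.8, 93.0 and 72.1 CPM in GFAP-IL6, or a log2 fold change of 0.36 with an edgeR adjusted p of 0.0768. The groups did not overlap for *Dusp5* and *Dusp6*, yet both genes missed the threshold that *Dusp1* passed. Over all genes tested, 13.8% lay apart in this direction. Among 17 direct partners of the member proteins, such as the MAP kinases, the EGF receptor family and the cyclin-dependent kinases, 0 were past the adjusted threshold by edgeR or DESeq2. An unadjusted p under 0.05 was found for 3 of these partners, against 20.5% of all genes. Their median log2 fold change was 0.0014. *Cdk2*, a target of p21, had a log2 fold change of 0.53 (edgeR adjusted p of 0.221), and *Erbb3*, a receptor kinase bound by the product of *Errfi1*, had 0.36 (edgeR adjusted p of 0.369).

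As *Dusp1* is also an immediate early gene, its values were set beside 10 other genes of that class, which are induced within minutes by neuronal activity and by many other stimuli. Of these, 3 rose and 7 were not past the threshold, which 2.86% of all genes tested passed. Of the 10, 5 had an unadjusted p under 0.05, against 20.5% of all genes. The GFAP-IL6 libraries lay wholly above the WT libraries for 5 of the 10, against 13.8% of all genes. Log2 fold changes were above 0 in 9 of 10, with a median of 0.37. *Nr4a1*, a nuclear receptor, had 60.8, 44.7 and 57.2 CPM in WT and 126, 129 and 105 CPM in GFAP-IL6, or a log2 fold change of 1.15 with an edgeR adjusted p of 1.4e-04. *Arc*, a regulator of AMPA receptor trafficking, had 66.9, 41.3 and 86.2 CPM in WT and 259, 232 and 160.3 CPM in GFAP-IL6, or a log2 fold change of 1.75 with an edgeR adjusted p of 7.12e-04. *Junb*, a subunit of AP-1, had 28.3, 14.3 and 19.1 CPM in WT and 46.7, 42.7 and 34.9 CPM in GFAP-IL6, or a log2 fold change of 1.03 with an edgeR adjusted p of 0.0108. In all 3, and in *Dusp1*, WT replicate 2 was the lowest WT library and GFAP-IL6 replicate 3 the lowest GFAP-IL6 library. This order was noticed after the values were seen, and its share among all genes was not computed. Among the other genes of the list, *Fos*, *Egr1* and *Egr2* kept this order, and *Fosb*, *Jun*, *Npas4* and *Ier2* broke it. The lowest WT library was replicate 3 for *Npas4*, and the lowest GFAP-IL6 library was replicate 1 for *Fosb*. *Junb* was not past the threshold without GFAP-IL6 replicate 1 or replicate 2, with edgeR adjusted p values of 0.0678 and 0.0521. With robust empirical Bayes in edgeR, neither *Arc* nor *Junb* was past it, with adjusted p values of 0.0623 and 0.0532. The summed CPM of the 10 genes was 446 to 602 in WT and 701 to 896 in GFAP-IL6. Of the 10 microglial markers, 6 were past the threshold, all higher. Another 2, *P2ry12* at -0.27 and *Gpr34* at -0.22, had log2 fold changes below 0 and did not pass it. The part that the immediate early shift, the microglial list, the endothelial list (7 of 10 past the threshold, all higher) or the mural list (1 of 10) had in the value of *Dusp1* was not tested.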

How the data were processed

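Frontal cortex mRNA was measured in 6 TruSeq libraries, grouped by their titles. The authors aligned reads to mm10 with STAR 2.4 and assigned them to GENCODE genes with featureCounts, and they deposited raw counts per gene with gene lengths. GEO's processing notes name hg19 as the build, and mm10 follows the study's methods. Whether strand was used is not given in the sources used here. The quasi-likelihood F-test of edgeR 4.0.16 (R 4.3.3) was applied to these counts (TMM scaling, filterByExpr with a minimum count of 10, group as the only term, Benjamini-Hochberg adjustment). The authors used DESeq2, and DESeq2 1.42.0 and limma-voom (limma 3.58.1) were run as alternatives. Standard errors were derived from the F statistic. The edgeR, DESeq2 and limma-voom steps were tested on simulated data. TPM used the deposited lengths. Depth was 7559524 to 16877001 counts per library, and the intervals given for log2 fold changes cover counting error and the spread between mice. No 2 libraries were the same within sampling noise, with a chi-square per degree of freedom of 2.23 to 20.1 over 15 pairs. Positions came from GENCODE M21, which 32593 of 33000 identifiers matched, and exon overlap was computed from it. Exon models there can differ in length from the genes as counted. Promoter windows came from RefSeq on GRCm38.p6.

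The 10 genes and the 17 other gene lists were chosen with earlier results of these data known. All 10 genes were named with their values. Of the other lists, except cell type markers, each gene past an adjusted p of 0.05 was named, up to 6 a list, or else the 2 with the widest log2 fold change. *Il6* and *Gfap* were named as a check of the labels. A gene that this rule would name is not reported here.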

Additional observations from a re-analysis of the deposited data

How the results depend on the processing

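*Dusp1* was past an adjusted p of 0.05 in all 16 alternatives, and no alternative was added after the data were seen. Leaving out 1 library gave 187 to 1061 genes past the threshold in place of 439, and 129 to 239 DEGs in place of 211, lowest without GFAP-IL6 replicate 3 and highest without WT replicate 1. It gave 1 to 2 of the 10 genes, 1 to 4 response genes, 0 to 2 coregulators, 1 to 2 genes of hormone supply, 0 to 1 paralogs, 0 to 1 partners and 2 to 4 immediate early genes. Without the low-count filter, 1154 genes were past the threshold, with 2 of the 10 genes, 5 response genes, 1 coregulator, 2 genes of hormone supply and 2 paralogs. Total count scaling gave 2 of the 10 genes and 1 paralog, and DESeq2 gave 2 of the 10 genes. Thinning to the smallest total gave 1 response gene, and robust empirical Bayes gave 1 paralog and 1 immediate early gene, *Nr4a1*. In each case the 2 of 10 were *Dusp1* and *Zbtb16*. The cause of these shifts was not tested.

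The groups share replicate numbers, but no same-numbered pair had a correlation of deviations over 0.1 across genes. The values were 0.0996 for the libraries numbered 1, the highest of all 9 pairs, 0.0147 for those numbered 2 and 0.0211 for those numbered 3. WT replicate 2 correlated best with GFAP-IL6 replicate 3, at 0.0524, so that not every library correlated best with its own number. With the replicate block, 750 genes were past the threshold in place of 439, with 2 of the 10 genes, 2 genes of hormone supply and 1 paralog.

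The sign changed for 3 values, all near 0. The log2 fold change of *Hsd11b1* was between -0.29 and 0.017 (positive without WT replicate 2) and that of *Errfi1* between -0.059 and 0.018 (positive without GFAP-IL6 replicate 3), and the difference in log2 receptor ratio between -0.057 and 0.011 (positive without WT replicate 1), over the fits that left out 1 library. Other scalings moved the median of all genes by less than 0.1, at most to 0.0198. Depth limits genes such as *Cebpd*, with few counts in each library.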

Other observations

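A pattern was seen only after the values were examined, and it concerns a single mouse in each group. Of the 21 further response genes tested, 12 (57.1%) had their highest GFAP-IL6 value in replicate 2, against 34.3% of all genes tested, with *Fkbp5*, *Plin4* and *Map3k6* among them. Of the 10 genes of the set, 3 did so, *Tsc22d3*, *Zbtb16* and *Sgk1*. In WT, 10 of the 21 response genes (47.6%) were highest in replicate 3, against 24.4% of all genes. Hormone levels, the hour of dissection and handling of the mice were not analysed here. GFAP-IL6 replicate 2 was also the shallowest library, at 7559524 counts, and had the lowest oligodendrocyte marker sum of its group, at 3465 CPM. Both libraries had the highest choroid plexus marker sum of their group. It was 642 CPM in WT replicate 3 and 65.2 CPM in GFAP-IL6 replicate 2, against 5.23 to 20.5 CPM in the other libraries. The part of depth and of these tissue markers in these counts was not tested.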
